A study of Mus musculus with 8 samples.

Results

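The genes described here encode ion channels, the membrane proteins that let potassium, calcium, sodium or chloride cross cell membranes, and the subunits that accompany them. They were chosen by name. Every gene of the deposited table whose symbol starts with Kcn, Cacn, Scn and a digit, Hcn and a digit, Clcn, Trpm, Trpv or Trpc was taken, except Kcnj10 and Kcnj16. This gave 168 of 21878 genes. Of the 168, 2 were matched by name but are not channel subunits, namely Trpc4ap, which encodes a protein that binds TRPC4 and belongs to a ubiquitin ligase, and Trpc5os, a transcript opposite to Trpc5.

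The RNA came from brain astrocytes of newborn wild-type C57BL/6 mice. The 4 cocktail libraries were made from astrocytes treated with a cocktail of C1q, a complement protein, and the cytokines IL-1α and TNFα, which the study used to obtain reactive astrocytes that carry the complement fragment C3d, and the 4 untreated libraries from resting astrocytes. The sources used here state neither doses nor duration. They do not say whether libraries came from different animals or cultures either, so each p-value measures library-to-library spread, part of which may be technical.

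Astrocytes do not fire action potentials. They keep a negative membrane potential through potassium channels that are open at rest, take up the potassium that neurons release, and signal through changes of internal calcium. Voltage-gated channels consist of a pore subunit and auxiliary subunits that set its trafficking and gating. Inward rectifiers and tandem-pore potassium channels (K2P) carry the resting conductance, CLC proteins carry chloride across the plasma membrane or exchange it for protons in endosomes and lysosomes, and TRP channels let cations in on chemical or physical stimuli.

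Values are FPKM, fragments scaled to gene length and library size, so that levels of different genes can be set side by side. Behind them stood 19195898 to 20640490 fragments per library. Of 10 astrocyte markers, 9 reached 1 FPKM in at least 4 libraries, with Gjb6 at most 0.209 FPKM in any library, and the summed FPKM of the list was 845 to 872 in cocktail and 1052 to 1188 in untreated libraries. Of the 9, 7 fell, Gfap among them, and 2 rose, namely Slc1a2 at 50.7 to 53.4 FPKM in cocktail and 8.89 to 10.2 FPKM in untreated libraries and Aqp4 at 247 to 257.5 FPKM in cocktail and 159.5 to 170.3 FPKM in untreated libraries. The summed FPKM of 14 microglial markers was 18.5 and 20.8 in cocktail libraries 1 and 2, 43.6 and 60.2 in cocktail libraries 3 and 4, and 15.2 to 18 in untreated libraries, so cocktail libraries 3 and 4 stood apart.

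Of the 168 genes, 51 reached 1 FPKM in at least 4 of the 8 libraries, and these were tested. Treated with the cocktail, the astrocytes had far more Kcnf1 RNA, 87.2 against 7.56 FPKM in untreated cells, and less RNA of 32 other channel genes. The potassium channel gene Kcnk2 averaged 3.46 FPKM in cocktail and 21.5 FPKM in untreated cells. The calcium channel gene Cacna1a averaged 4.82 FPKM in cocktail and 11.7 FPKM in untreated cells, and the gene Cacna1d 1.19 FPKM in cocktail and 5.77 FPKM in untreated cells. In limma on log2(FPKM + 1), 10 of the 51 rose and 32 fell at a Benjamini-Hochberg adjusted p under 0.05, and 9 were not called. Thus 82.4% were called, against 67.7% of all 11845 genes tested. Over all tested genes, 26.6% were called higher and 41.1% lower, while of the 51 channel genes 19.6% were higher and 62.7% lower. In bulk RNA, fewer cells of a type and less RNA per cell cannot be told apart.

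At least a 2-fold difference in mean FPKM was called upward for 2 channel genes and downward for 16, against 5.24% and 7.86% of all tested genes. In 40 of the 51 no cocktail library fell within the untreated range or the reverse, against 62.7% of all tested genes. The median log2 change was -0.35 over the 51 and -0.05 over all tested genes. Of the 51, 9 had a mean of at least 1 FPKM in 1 group alone, and such genes enter the test through the group in which they are high. They were Cacng5 through the cocktail group and Kcnj12, Kcnj13, Kcnk13, Kcns1, Cacna1c, Cacna1h, Cacna2d3 and Cacnb4 through the untreated group. The other 42 had at least 1 FPKM in both group means. Of these 9 rose, 24 fell and 9 were not called, where the shares over all 11245 genes of that kind were 26.4% higher and 39.9% lower. When libraries were rescaled by median ratios, 12 members were called higher and 30 lower, and rises made up 49.8% of the calls over all genes, against 39.3% as deposited.

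**Figure D1:**
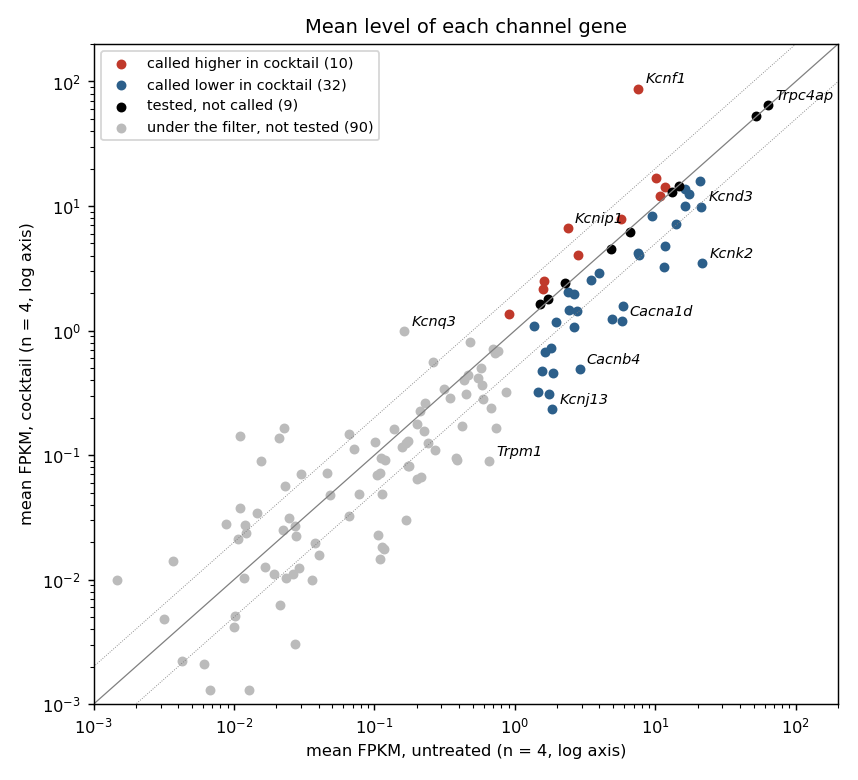
Mean FPKM of 141 channel genes in cocktail cells (y axis, log) and untreated cells (x axis, log), each a mean of 4 libraries, with 27 genes left out because a group mean was 0. The solid line marks equal means and the dotted lines a 2-fold difference. Kcnf1 lies far above the diagonal, and the 32 genes called lower lie below it.

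The summed FPKM of all 168 genes was 449.7 ± 2.58 in cocktail cells and 462 ± 3.35 in untreated cells (SD, n = 4). Without Trpc4ap and Kcnf1 it was 298 ± 3.47 FPKM in cocktail and 391 ± 2.69 FPKM in untreated cells (SD, n = 4). Kcnf1 was the most abundant of the 168 genes in cocktail cells and the 19th in untreated cells, where Trpc4ap and Cacng7 led.

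Kcnf1 encodes an electrically silent voltage-gated potassium subunit. It forms no current alone and changes the gating of the Kv2 channels that it joins. It stood at 88.3, 83.1, 88.2 and 89 FPKM in cocktail libraries 1 to 4, against 7.34, 7.27, 7.30 and 8.35 FPKM in untreated libraries 1 to 4. All cocktail libraries lay above all untreated libraries, 11.5-fold higher in the mean (log2 change 3.37, standard error 0.0432, limma adjusted p = 7.1e-14). Behind these values were 33505 fragments over the 4 cocktail libraries and 2877 over the 4 untreated libraries. Among 3151 genes called higher its ratio of means ranked 70. Its level exceeded that of 97.1% of all genes in cocktail and 67.3% in untreated cells. The gene lies on chromosome 12 from 17172100 to 17176888 of GRCm38, and no exon of another annotated gene overlaps its exons.

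The stretch before the start of the gene with the largest rise and that of the gene with the largest fall, Kcnj13, are shown, since both have a single start in RefSeq. Each runs from 250 bases before to 50 bases after the start, 5′ to 3′ on the minus strand of GRCm38.p6, with matched motifs in capitals.
Kcnf1, chr12:17176839-17177138: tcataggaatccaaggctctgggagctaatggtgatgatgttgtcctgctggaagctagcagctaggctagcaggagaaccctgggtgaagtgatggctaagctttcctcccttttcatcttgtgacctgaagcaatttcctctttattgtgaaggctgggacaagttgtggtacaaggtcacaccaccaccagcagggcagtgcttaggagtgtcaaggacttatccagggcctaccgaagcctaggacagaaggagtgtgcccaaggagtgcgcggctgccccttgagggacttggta
Kcnj13, chr1:87394680-87394979: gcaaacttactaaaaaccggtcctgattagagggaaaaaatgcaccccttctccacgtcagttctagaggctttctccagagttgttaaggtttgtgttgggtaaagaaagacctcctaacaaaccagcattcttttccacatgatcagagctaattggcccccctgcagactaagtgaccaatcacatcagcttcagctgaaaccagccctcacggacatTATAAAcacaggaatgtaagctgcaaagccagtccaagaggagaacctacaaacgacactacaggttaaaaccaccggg
Both strands were searched for the NF-kB motif by its consensus, AP-1 (TGANTCA), CRE (TGACGTCA), C/EBP (TTGCNNCAA), the GC box (GGGCGG) and TATAAA. None of these letters occurs in the window of Kcnf1. The window of Kcnj13 holds TATAAA at base 222. Of 32851 promoters of this length, 4.51% hold the NF-kB motif, 7.81% AP-1, 1.79% CRE, 2.08% C/EBP, 35.7% a GC box and 13.6% TATAAA. A match of letters is a description of the sequence and not a bound site. RefSeq windows were found for 35 of 42 channel genes named here.

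Kcns1, another silent partner of Kv2, was lower after the cocktail. It stood at 0.551, 0.458, 0.360 and 0.454 FPKM in the cocktail libraries and 2.11, 1.67, 1.93 and 1.77 FPKM in the untreated libraries, 4.10-fold lower without overlap (limma adjusted p = 9.1e-08). The 2 silent partners Kcnf1 and Kcns1 thus moved in opposite directions, though Kcns1 passed the filter through the untreated group alone.

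Of 40 voltage-gated potassium pore genes 9 were tested, of which 2 rose and 5 fell. Kcnh5, a member of the ether-à-go-go family, stood at 1.21, 1.35, 1.33 and 1.04 FPKM in the cocktail libraries and 4.58, 5.18, 4.61 and 5.40 FPKM in the untreated libraries, 4.00-fold lower (log2 change -1.41, standard error 0.0658, limma adjusted p = 2.6e-09). Its highest cocktail library lay under its lowest untreated library by more than 2-fold. Kcnc1, a Kv3 pore known for fast-spiking neurons, stood at 1.12, 1.11, 0.955 and 1.05 FPKM in the cocktail libraries and 2.85, 2.75, 2.55 and 2.39 FPKM in the untreated libraries, 2.48-fold lower without overlap (limma adjusted p = 1.3e-07). Kcnd3, a pore of the fast-inactivating A-type current, stood at 9.26, 9.91, 10.3 and 9.89 FPKM in the cocktail libraries and 21.6, 22, 20.9 and 20.4 FPKM in the untreated libraries (log2 change -1.04, standard error 0.0385, limma adjusted p = 3.4e-10), and the groups were apart.

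Kcnd1, a close relative of Kcnd3 in the Kv4 family, moved the other way. Its values were 3.86, 4.14, 4.05 and 4.00 FPKM in the cocktail libraries and 2.73, 2.83, 2.79 and 2.91 FPKM in the untreated libraries, 1.43-fold higher (limma adjusted p = 6.7e-06). Kcna6, a Kv1 pore, fell less than Kcnd3 in ratio, to 12.5 ± 0.654 FPKM in cocktail cells, against 17.2 ± 0.473 FPKM in untreated cells (SD, n = 4, limma adjusted p = 1.3e-06). Of the 5945 exon bases of Kcna6, 2355 overlap exons of the antisense gene Gm26673. Summed over the 40 pore genes, FPKM was 126 ± 2.56 in cocktail cells and 69.2 ± 1.60 in untreated cells (SD, n = 4), and Kcnf1 made up most of the sum in cocktail cells.

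**Figure D2:**
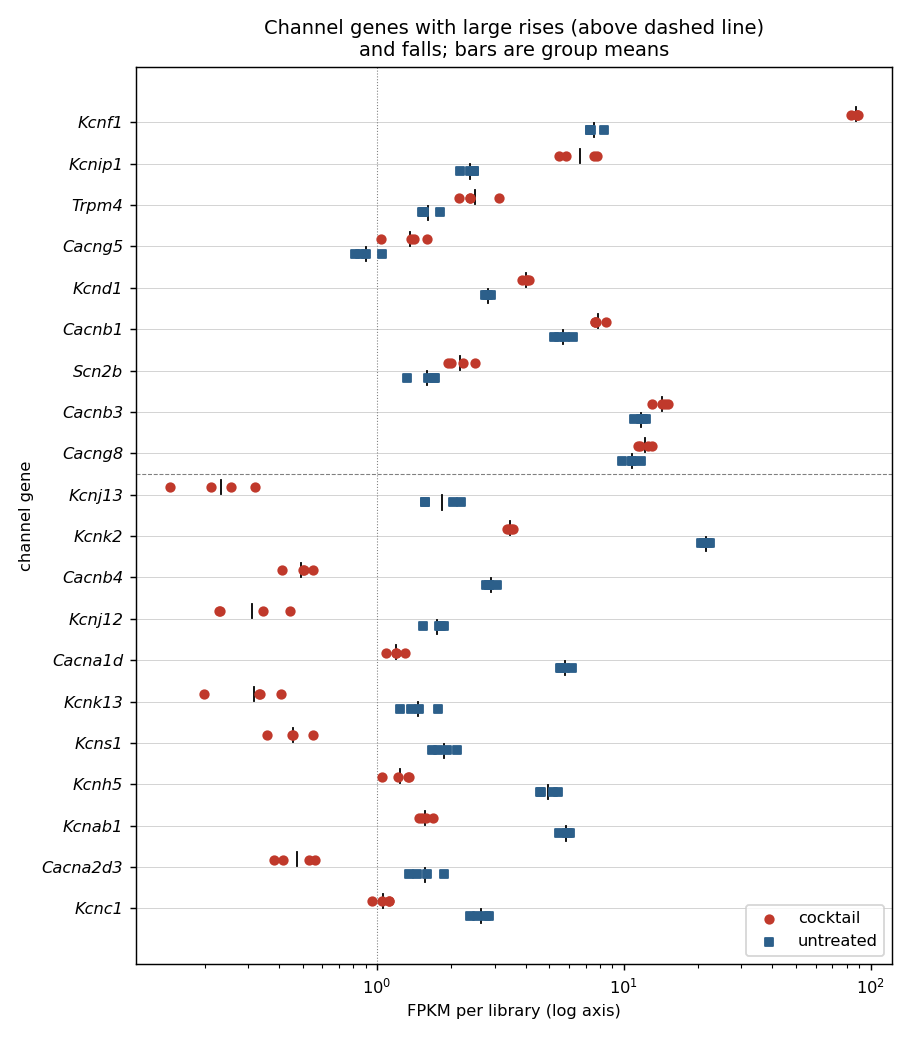
FPKM of each library (x axis, log) for 9 of the 10 channel genes called higher and 11 of the 12 with the largest falls, with red circles for cocktail and blue squares for untreated libraries and bars for group means. Kcnf1 at 83.1 to 89.0 FPKM in cocktail libraries stands apart from the other rises drawn, while Cacng5 and Cacng8 overlap between groups.

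Among auxiliary potassium subunits, 5 of 17 were tested, of which 1 rose and 3 fell. Kcnip1 encodes a calcium-binding protein that joins Kv4 pores. It stood at 5.46, 5.83, 7.76 and 7.54 FPKM in cocktail libraries 1 to 4, against 2.18, 2.39, 2.48 and 2.47 FPKM in untreated libraries 1 to 4. The groups did not overlap, with a 2.79-fold rise (log2 change 1.17, standard error 0.0931, limma adjusted p = 3.5e-07), and cocktail libraries 3 and 4 lay above 1 and 2. Without cocktail libraries 3 and 4, which held more microglial marker RNA, its log2 change was 0.97 (limma adjusted p = 3.8e-07), and without 1 and 2 it was 1.36. Kcnip3, of the same family, fell to 1.18 ± 0.0627 FPKM in cocktail cells, against 1.95 ± 0.0655 FPKM in untreated cells (SD, n = 4, limma adjusted p = 1.0e-05).

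Kcnab1, a cytoplasmic beta subunit of Kv1 channels, stood at 1.48, 1.58, 1.68 and 1.52 FPKM in the cocktail libraries and 5.97, 5.46, 6.06 and 5.92 FPKM in the untreated libraries (log2 change -1.42, standard error 0.0496, limma adjusted p = 2.1e-10), with every cocktail library under every untreated one. Kcnab2 was not called, at 2.40 ± 0.197 FPKM in cocktail cells and 2.27 ± 0.189 FPKM in untreated cells (SD, n = 4, limma adjusted p = 0.44). Kcne1l, an X-linked relative of the small subunit Kcne1, had the highest mean level of the auxiliary genes. Its values were 11.3, 11.1, 8.77 and 8.86 FPKM in the cocktail libraries and 17, 14.6, 18.1 and 15.4 FPKM in the untreated libraries (limma adjusted p = 2.9e-05), and cocktail libraries 3 and 4 were the lowest.

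All 4 tested K2P genes and both tested inward rectifiers fell, but Kcnk13 and both inward rectifiers passed the filter through the untreated group alone, which favours a fall. Under the filter and in limma without it, Kcnk3 and Kcnk5 were called lower, and the inward rectifier Kcnj15 was called higher, at 0.166 ± 0.0659 FPKM in cocktail cells and 0.0227 ± 0.0146 FPKM in untreated cells (SD, n = 4, adjusted p = 0.0022 in limma without the filter), from 82 fragments over the 4 cocktail libraries and 11 over the 4 untreated libraries. Kcnk2, known as TREK-1, is a channel opened by membrane stretch and by arachidonic acid. It stood at 3.55, 3.43, 3.36 and 3.48 FPKM in cocktail libraries 1 to 4, against 22.4, 20.6, 22 and 21.1 FPKM in untreated libraries 1 to 4. The groups were 6.23-fold apart in the mean (log2 change -2.34, standard error 0.0384, limma adjusted p = 4.7e-13), with 1733 fragments over the 4 cocktail libraries and 10671 over the 4 untreated libraries. Its relative Kcnk10 fell to 4.18 ± 0.158 FPKM in cocktail cells, against 7.53 ± 0.268 FPKM in untreated cells (SD, n = 4), and Kcnk1 to 7.12 ± 0.473 FPKM in cocktail cells, against 14 ± 0.551 FPKM in untreated cells (SD, n = 4, limma adjusted p = 2.5e-08 and 8.7e-09). Kcnk13, a K2P channel that microglia are known to use, stood at 0.336, 0.200, 0.407 and 0.333 FPKM in the cocktail libraries and 1.47, 1.24, 1.76 and 1.37 FPKM in the untreated libraries (limma adjusted p = 7.4e-07). Every cocktail library lay under every untreated one, and cocktail libraries 3 and 4 overlapped 1 and 2. Behind these values were 80 fragments over the 4 cocktail libraries and 361 over the 4 untreated libraries. The part of microglia in the fall of Kcnk13 was not tested. Over the 14 K2P genes the summed FPKM was 15.5 ± 0.496 in cocktail cells and 45.2 ± 1.30 in untreated cells (SD, n = 4), and Kcnk2 and Kcnk1 held most of it. Kcnk2 lies on chromosome 1 from 189207930 to 189402782, and 604 of its 4943 exon bases overlap exons of the antisense gene A430027H14Rik.

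Kcnj13, an inward rectifier known from choroid plexus and retinal pigment epithelium, had the largest fall in ratio. Its values were 0.212, 0.322, 0.255 and 0.145 FPKM in the cocktail libraries and 1.57, 2.18, 2.04 and 1.57 FPKM in the untreated libraries, 7.88-fold lower (log2 change -1.20, standard error 0.0843, limma adjusted p = 1.1e-07). It rests on few fragments, 57 fragments over the 4 cocktail libraries and 445 over the 4 untreated libraries, and 623 of the 1270 exon bases of the gene overlap exons of Gigyf2 on the opposite strand, whose reads cannot be told apart unless counting used strand. Ependymal markers, from another cell type of the ventricle wall, were also lower, with a summed FPKM of 71.9 to 84.6 in cocktail and 126 to 140 in untreated libraries. Of the 5 listed, 3 reached 1 FPKM and all 3 fell, and most of the sum was Foxj1. Tmem212 was at most 0.0697 FPKM in any library. Their part in the fall of Kcnj13 was not tested. Kcnj12, a strong rectifier of the Kir2 family, stood at 0.345, 0.443, 0.229 and 0.231 FPKM in the cocktail libraries and 1.87, 1.78, 1.54 and 1.82 FPKM in the untreated libraries (limma adjusted p = 6.7e-08), a 5.62-fold fall without overlap.

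Kcnn3 was the only tested member of 8 calcium- or sodium-activated potassium channels. It encodes a small-conductance channel opened by calcium and stood at 8.40, 9.14, 8.21 and 7.76 FPKM in the cocktail libraries and 9.37, 9.86, 9.35 and 9.20 FPKM in the untreated libraries (log2 change -0.16, standard error 0.0476, limma adjusted p = 0.012). The groups did not overlap, though the ratio of means was only 1.13-fold. The call was lost without cocktail libraries 3 and 4 (limma adjusted p = 0.12), after median-ratio rescaling and after quantile normalization.

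All 4 tested calcium channel pores fell, of which Cacna1c and Cacna1h passed the filter through the untreated group alone. Of 6 further pores under the filter, limma without it called 2 T-type pores higher and 1 lower. Cacna1g had 0.807 ± 0.0986 FPKM in cocktail cells and 0.475 ± 0.0693 FPKM in untreated cells (SD, n = 4, adjusted p = 0.00077 in limma without the filter). Cacna1i had 0.0898 ± 0.0147 FPKM in cocktail cells and 0.0155 ± 0.00638 FPKM in untreated cells (SD, n = 4, adjusted p = 0.00041 in limma without the filter), from 71 fragments over the 4 cocktail libraries and 12 over the 4 untreated libraries. Cacna1e, the R-type pore, was lower, at 0.413 ± 0.0320 FPKM in cocktail cells and 0.548 ± 0.0559 FPKM in untreated cells (SD, n = 4, adjusted p = 0.0081 in limma without the filter). Cacna1d encodes an L-type pore that opens at fairly negative potentials. It stood at 1.19, 1.29, 1.09 and 1.20 FPKM in cocktail libraries 1 to 4, against 5.58, 6.19, 5.78 and 5.51 FPKM in untreated libraries 1 to 4. Cocktail libraries lay more than 4-fold under untreated ones, 4.84-fold in the mean (log2 change -1.63, standard error 0.0524, limma adjusted p = 1.0e-10), with 1078 fragments over the 4 cocktail libraries and 5160 over the 4 untreated libraries. The gene lies on chromosome 14 from 30039941 to 30491156, and 589 of its 12621 exon bases overlap exons of Chdh on the opposite strand. Cacna1a, the P/Q-type pore of presynaptic terminals, stood at 5.44, 5.22, 4.42 and 4.19 FPKM in the cocktail libraries and 11.6, 12.1, 11.3 and 11.8 FPKM in the untreated libraries (log2 change -1.13, standard error 0.0657, limma adjusted p = 1.9e-08). Its cocktail libraries 3 and 4 were the lowest, and without them the log2 change was -1.0. Cacna1c, the other L-type pore tested, and Cacna1h, a T-type pore, also fell. Cacna1c had 0.674 FPKM in cocktail and 1.63 FPKM in untreated cells, and Cacna1h had 0.725 FPKM in cocktail and 1.80 FPKM in untreated cells (limma adjusted p = 7.4e-07 and 1.2e-06).

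The auxiliary calcium channel subunits did not follow the pores as one group. Both tested alpha2delta genes, which carry the pore to the surface, fell, Cacna2d3 having passed the filter through the untreated group alone. It stood at 0.418, 0.532, 0.383 and 0.560 FPKM in the cocktail libraries and 1.87, 1.59, 1.46 and 1.35 FPKM in the untreated libraries (limma adjusted p = 1.4e-06), and Cacna2d1 stood at 1.95 ± 0.149 FPKM in cocktail cells and 2.65 ± 0.182 FPKM in untreated cells (SD, n = 4, limma adjusted p = 0.00053). All 4 beta subunit genes were tested, of which 2 rose and 2 fell. Of these, Cacnb4 passed the filter through the untreated group alone. Cacnb4 stood at 0.505, 0.548, 0.499 and 0.413 FPKM in the cocktail libraries and 2.86, 2.76, 2.85 and 3.07 FPKM in the untreated libraries, 5.87-fold lower (log2 change -1.38, standard error 0.0551, limma adjusted p = 6.4e-10). Cacnb2 fell to 2.88 ± 0.323 FPKM in cocktail cells, against 3.94 ± 0.174 FPKM in untreated cells (SD, n = 4, limma adjusted p = 0.00034). Cacnb1 and Cacnb3, which were the more abundant beta genes in both groups, rose. Cacnb1 stood at 7.67, 8.44, 7.70 and 7.62 FPKM in the cocktail libraries and 5.22, 6.21, 5.48 and 5.81 FPKM in the untreated libraries (limma adjusted p = 2.7e-05), and Cacnb3 at 15.1, 14.3, 13 and 14.7 FPKM in the cocktail libraries and 11, 11.9, 11.7 and 12.3 FPKM in the untreated libraries (limma adjusted p = 0.00049), both without overlap. Of the 8963 exon bases of Cacnb4, 1433 overlap exons of A430018G15Rik on the opposite strand. Summed over the 4 beta genes, FPKM was 25.5 ± 0.770 in cocktail cells and 24.2 ± 0.875 in untreated cells (SD, n = 4).

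The gamma class holds the proteins that escort AMPA-type glutamate receptors as well as calcium channel subunits. Cacng7 was the second most abundant gene of the whole set in untreated cells and was not called, at 51.7, 53.3, 52.3 and 53 FPKM in the cocktail libraries and 50.5, 53.4, 52.1 and 51.1 FPKM in the untreated libraries (log2 change 0.02, standard error 0.0269, limma adjusted p = 0.5). The groups overlapped, and the 95% interval of the log2 change ran from -0.03 to 0.07. After median-ratio rescaling it was called higher. Cacng5 had 1.04, 1.42, 1.37 and 1.59 FPKM in the cocktail libraries and 0.905, 1.05, 0.854 and 0.812 FPKM in the untreated libraries (limma adjusted p = 0.0045), with 1 cocktail library inside the range of the untreated ones. It passed the filter through the cocktail group alone. Cacng8 stood at 12.1 ± 0.750 FPKM in cocktail cells and 10.8 ± 0.762 FPKM in untreated cells (SD, n = 4, limma adjusted p = 0.024), and it did not pass when cocktail library 1, cocktail library 2 or untreated library 3 was left out (limma adjusted p = 0.073, 0.059 and 0.075). With both cocktail libraries 1 and 2 left out it was 0.23.

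Both tested sodium channel pores fell and 2 of 3 tested beta subunits rose. Scn2a1, a neuronal pore, was at 1.09 FPKM in cocktail and 1.36 FPKM in untreated cells (limma adjusted p = 0.016), a call lost without cocktail libraries 3 and 4 (0.13) and after quantile normalization. Scn2b, a beta subunit, had 2.49, 2.24, 2.00 and 1.94 FPKM in the cocktail libraries and 1.70, 1.32, 1.61 and 1.72 FPKM in the untreated libraries (limma adjusted p = 0.0038), higher without overlap. Scn3b fell to 1.47 ± 0.163 FPKM in cocktail cells, against 2.44 ± 0.135 FPKM in untreated cells (SD, n = 4, limma adjusted p = 2.5e-05). Hcn2, a pacemaker channel opened by hyperpolarization and the only tested HCN gene, stood at 1.71, 1.13, 1.74 and 1.11 FPKM in the cocktail libraries and 2.84, 2.79, 2.85 and 2.65 FPKM in the untreated libraries (limma adjusted p = 4.1e-05), lower without overlap.

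**Figure D3:**
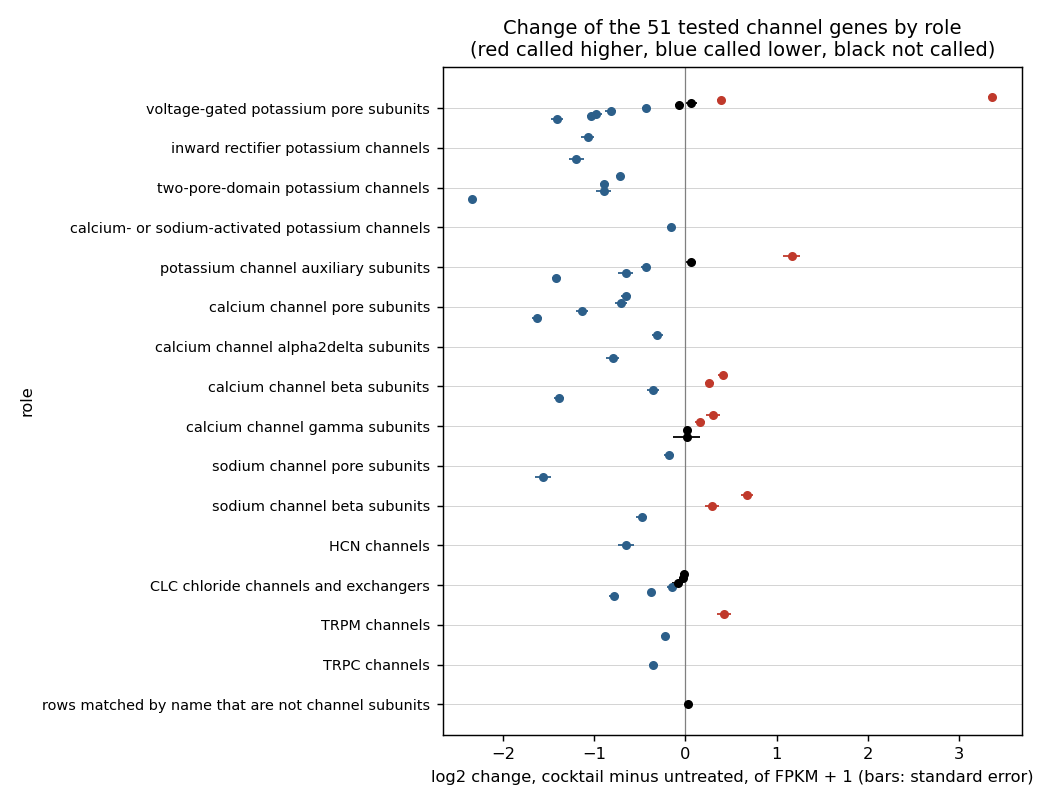
Change of the 51 tested genes on the log2(FPKM + 1) scale (x axis, cocktail minus untreated, bars standard errors) by role (y axis). Pores of calcium and sodium channels, inward rectifiers and K2P channels lie left of 0, while beta subunits of calcium and sodium channels lie on both sides.

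Of 6 tested CLC genes 3 fell and 3 were not called. Clcn3, an endosomal exchanger of chloride and protons, stood at 15.7, 15.6, 16.4 and 15.8 FPKM in the cocktail libraries and 21.1, 21.2, 21.3 and 20.3 FPKM in the untreated libraries (limma adjusted p = 4.1e-07), a fall of 1.32-fold without overlap. Clcn2, a chloride channel of the plasma membrane, fell to 4.05 ± 0.314 FPKM in cocktail cells, against 7.67 ± 0.366 FPKM in untreated cells (SD, n = 4, limma adjusted p = 9.9e-08). Clcn5 fell to 2.05 ± 0.119 FPKM in cocktail cells, against 2.38 ± 0.185 FPKM in untreated cells (SD, n = 4, limma adjusted p = 0.037). Leaving out cocktail library 2 or 3 or untreated library 1, 3 or 4 raised its adjusted p to between 0.055 and 0.11, and it was not called after median-ratio rescaling or quantile normalization. Clcn7, the lysosomal exchanger, had 14.6 ± 0.413 FPKM in cocktail cells and 14.7 ± 0.888 FPKM in untreated cells (SD, n = 4), with a 95% interval of the log2 change from -0.10 to 0.07 (limma adjusted p = 0.82). Clcn4 and Clcn6 were also not called, at 12.9 FPKM in cocktail and 13.2 FPKM in untreated cells for the first and 6.18 FPKM in cocktail and 6.64 FPKM in untreated cells for the second.

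Of 21 TRP channel genes 3 were tested. Trpm7, a cation channel fused to a kinase, stood at 13.2, 13.3, 14.3 and 14.2 FPKM in the cocktail libraries and 16.5, 15.5, 16.6 and 16.1 FPKM in the untreated libraries (limma adjusted p = 0.00028), lower without overlap. Trpm4, a sodium-permeable channel opened by internal calcium, had 2.39, 2.37, 2.15 and 3.11 FPKM in the cocktail libraries and 1.81, 1.54, 1.53 and 1.55 FPKM in the untreated libraries (limma adjusted p = 0.00053). The lowest cocktail library lay above the highest untreated one, and cocktail library 4 was the highest. Trpc1 fell to 2.53 ± 0.137 FPKM in cocktail cells, against 3.50 ± 0.101 FPKM in untreated cells (SD, n = 4, limma adjusted p = 4.1e-05). No TRPV gene reached 1 FPKM. Trpc4ap, the ligase component, was the most abundant row in untreated cells and was not called, at 64.8 ± 0.533 FPKM in cocktail cells and 63.3 ± 1.52 FPKM in untreated cells (SD, n = 4, limma adjusted p = 0.27), although it was called higher after median-ratio rescaling.

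The other 117 genes were under the filter. Of them 11 were at 0 in every library (Cacng1, Cacng3, Kcna10, Kcne3, Kcnj1, Kcnj5, Kcnk16, Kcnk18, Kcnk9, Kcns2 and Trpc2) and 8 were above 0 in 1 library. By counting error alone, a library at 0 could still hold 3 fragments, or 0.0727 to 0.0781 FPKM at a gene length of 2 kb. The highest library was under 0.1 FPKM for 59 of the 117, and 2, Kcnq3 and Cacna2d2, reached 1 FPKM in some library. When limma was run without the filter, genes at 0 in every library were left out, these 11 among them. Of the rest of the 117, 7 were called higher and 23 lower. Of the 5413 genes under the filter and above 0 in some library, 9.09% were higher and 17.5% lower.

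Of these 30, 7 had a group mean of at least 0.5 FPKM, a 2-fold difference and no overlap, a rule set after their values were seen, and 6 are described here. Kcnq3 and Kcnq5, subunits of the M-type potassium channel that holds neurons near rest, were higher. Kcnq3 had 1.00, 1.05, 1.03 and 0.864 FPKM in the cocktail libraries and 0.163, 0.228, 0.122 and 0.140 FPKM in the untreated libraries, from 901 fragments over the 4 cocktail libraries and 147 over the 4 untreated libraries (adjusted p = 3.8e-07 in limma without the filter). Kcnq5 had 0.606, 0.536, 0.537 and 0.568 FPKM in the cocktail libraries and 0.240, 0.270, 0.284 and 0.251 FPKM in the untreated libraries (adjusted p = 6.0e-06 in limma without the filter).

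Kcns3, one more silent partner of Kv2, had 0.236, 0.203, 0.0925 and 0.134 FPKM in the cocktail libraries and 0.580, 0.791, 0.857 and 0.722 FPKM in the untreated libraries (adjusted p = 2.4e-05 in limma without the filter), again lower without overlap. Trpm1, a cation channel known from retinal bipolar cells, had 0.0716, 0.169, 0.0638 and 0.0516 FPKM in the cocktail libraries and 0.735, 0.647, 0.645 and 0.602 FPKM in the untreated libraries (adjusted p = 1.5e-06 in limma without the filter), from 54 fragments over the 4 cocktail libraries and 398 over the 4 untreated libraries. Kcna2 and Cacna2d2 were lower as well. Kcna2 stood at 0.238 FPKM in cocktail and 0.671 FPKM in untreated cells (adjusted p = 4.0e-05 in limma without the filter), and Cacna2d2 at 0.321 FPKM in cocktail and 0.860 FPKM in untreated cells (adjusted p = 0.00018 in limma without the filter).

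Marker RNA of other cells moved with these results. The neuronal list had a summed FPKM of 52.9 to 60.3 in cocktail and 141 to 159 in untreated libraries, with 4 of 13 genes at 1 FPKM or more in at least 4 libraries. Of the 4, 2 fell and 1, Gad1, rose, at 2.89 to 3.58 FPKM in cocktail and 0.937 to 1.22 FPKM in untreated libraries. Most of the sum came from Stmn2, while Rbfox3, Snap25 and Nefl, markers of mature neurons, were at most 0.0488, 0.114 and 0.0259 FPKM in any library. Syt1, of the same list, stood at 0.698 to 1.11 FPKM in cocktail and 0.705 to 0.854 FPKM in untreated libraries, with overlap. The mural list had 123 to 138 FPKM in cocktail and 558 to 628 FPKM in untreated libraries, most of it Acta2, with 3 of 6 genes at 1 FPKM or more. The oligodendrocyte lineage list had 97.1 to 102 FPKM in cocktail and 166.5 to 176 FPKM in untreated libraries, with 5 of 9 genes at 1 FPKM or more and Mog at 0 throughout. Of the 5, 3 fell, with Olig1 making up most of the sum, and Pdgfra rose, at 2.93 to 3.29 FPKM in cocktail and 0.809 to 1.06 FPKM in untreated libraries. The endothelial list had 1.15 to 1.53 FPKM in cocktail and 4.64 to 5.14 FPKM in untreated libraries, with 1 of 6 genes at that level and Cldn5 at 0. That gene was Kdr, at 0.540 to 0.690 FPKM in cocktail and 3.885 to 4.161 FPKM in untreated libraries, most of the untreated sum. Cdh5 overlapped, at 0.346 to 0.756 FPKM in cocktail and 0.294 to 0.887 FPKM in untreated libraries. The fibroblast list had 80.3 to 112 FPKM in cocktail and 102 to 126 FPKM in untreated libraries, with all 5 genes at that level. Of these 2 fell and 2 rose, namely Dcn at 6.15 to 11.9 FPKM in cocktail and 1.26 to 1.59 FPKM in untreated libraries and Lum at 6.52 to 8.72 FPKM in cocktail and 0.151 to 0.298 FPKM in untreated libraries. The part of these cells in the falls of channel genes was not tested.

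Of 14 microglial markers, 12 were higher in cocktail libraries 3 and 4 than in 1 and 2 without overlap, while Tmem119 and P2ry12 overlapped between these pairs. Of the 14, 8 reached 1 FPKM in at least 4 libraries, and P2ry12 was at most 0.151 FPKM. Kcna3 and Trpv2, channels known from microglia and other immune cells and named here after their values were seen, split the cocktail libraries in the same way. Kcna3 had 0.253, 0.210, 0.471 and 0.676 FPKM in the cocktail libraries and 0.602, 0.423, 0.329 and 0.394 FPKM in the untreated libraries, and Trpv2 had 0.568, 0.378, 0.927 and 0.850 FPKM in the cocktail libraries and 0.814, 0.655, 0.714 and 0.836 FPKM in the untreated libraries. In both genes cocktail libraries 1 and 2 were below 3 and 4, and the groups overlapped. Hvcn1, a channel gene outside the name rule and under the filter, also had cocktail libraries 1 and 2 below 3 and 4. It had 0.561, 0.804, 1.246 and 1.568 FPKM in the cocktail libraries and 0.258, 0.300, 0.324 and 0.170 FPKM in the untreated libraries. Its groups did not overlap, and it was named after its values were seen. Kcnk13 and Kcnn4 did not split in this way. Kcnk13, described above as a channel of microglia, overlapped between the pairs. The calcium-activated channel Kcnn4 was lower in libraries 3 and 4. It had 0.222, 0.210, 0.059 and 0.160 FPKM in cocktail libraries 1 to 4, from 32 fragments. Among the 51 tested genes the 2 pairs of cocktail libraries did not overlap in 21, of which 4 were higher and 17 lower in libraries 3 and 4. Over all tested genes 45.8% did not overlap, 24.6% higher and 21.1% lower in libraries 3 and 4. Kcnip1, Kcne1l, Kcnj12 and Cacna1h were among the 5 of the 21 with the largest ratio between the means of the pairs. Without cocktail libraries 3 and 4, 10 members rose and 29 fell, and without libraries 1 and 2, 9 rose and 31 fell. The part of microglia in these values was not tested.

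**Figure D4:**
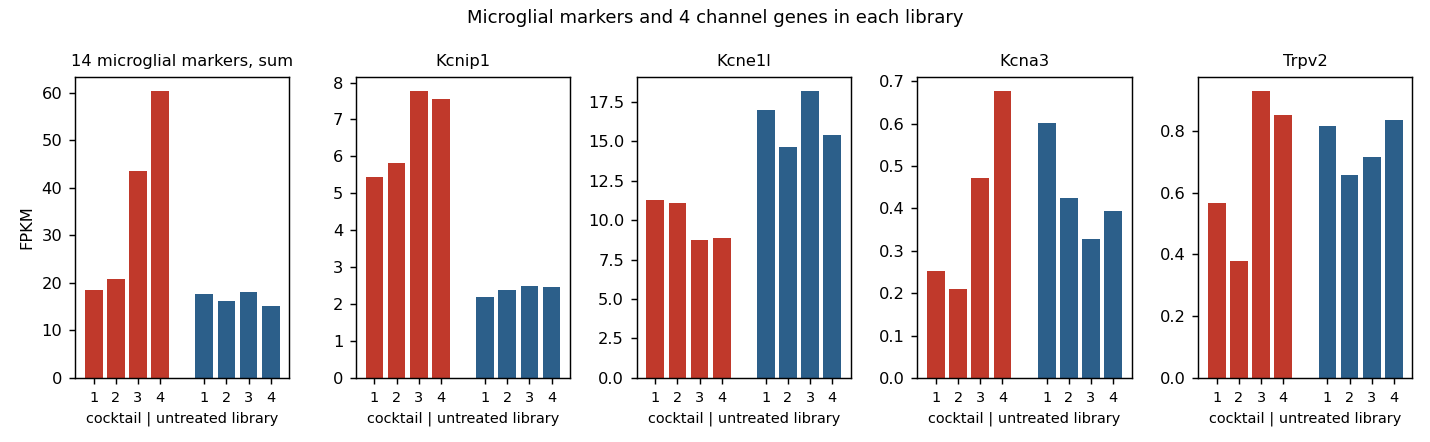
FPKM in each library (y axis) for the sum of 14 microglial markers and for Kcnip1, Kcne1l, Kcna3 and Trpv2, with cocktail libraries 1 to 4 in red and untreated libraries 1 to 4 in blue. Cocktail libraries 3 and 4 are above 1 and 2 for the sum of the markers, Kcnip1, Kcna3 and Trpv2 and below them for Kcne1l.

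Channel proteins and regulators whose names fall outside the name rule were looked at as a list of 64 genes. Of these 33 were tested, 15 rose, 14 fell and 4 were not called, with a median log2 change of 0.04. Over all tested genes 26.6% were called higher and 41.1% lower, with a median of -0.05. Orai2, a subunit of the channel that refills calcium stores, had 32.5, 29.9, 29.1 and 27.6 FPKM in the cocktail libraries and 12.8, 12.5, 13.4 and 13.1 FPKM in the untreated libraries (log2 change 1.14, standard error 0.0461, limma adjusted p = 7.2e-10), higher without overlap. Stim1, the sensor that opens ORAI channels, had 8.97 ± 0.461 FPKM in cocktail cells and 16.4 ± 0.571 FPKM in untreated cells (SD, n = 4, limma adjusted p = 7.1e-09). Stim2, the other store sensor, rose, at 15.4 ± 0.529 FPKM in cocktail cells and 10.1 ± 0.390 FPKM in untreated cells (SD, n = 4, limma adjusted p = 8.1e-08). Lrrc8a, which encodes the essential subunit of the volume-regulated anion channel, rose as well, at 27 ± 0.334 FPKM in cocktail cells and 15.4 ± 0.149 FPKM in untreated cells (SD, n = 4, limma adjusted p = 2.2e-10), and its relatives Lrrc8b, Lrrc8c and Lrrc8d were also called higher. Stim2 and the Lrrc8 genes were named after their values were seen. Piezo1, a channel opened by stretch, had 11.4 ± 0.846 FPKM in cocktail cells and 21.7 ± 1.16 FPKM in untreated cells (SD, n = 4, limma adjusted p = 2.7e-08). Nalcn, the sodium leak channel, had 5.49 ± 0.531 FPKM in cocktail cells and 9.99 ± 0.362 FPKM in untreated cells (SD, n = 4, limma adjusted p = 2.0e-07), and Scnn1a, a subunit of the epithelial sodium channel, had 1.14 ± 0.0278 FPKM in cocktail cells and 3.29 ± 0.247 FPKM in untreated cells (SD, n = 4, limma adjusted p = 1.2e-08). Fgf12, an intracellular partner of sodium channel pores, was 4.14-fold lower, at 0.419 ± 0.0314 FPKM in cocktail cells and 1.74 ± 0.0298 FPKM in untreated cells (SD, n = 4, limma adjusted p = 1.2e-08). Fgf12 passed the filter through the untreated group alone, which favours a fall. The libraries of Orai2, Stim1, Piezo1, Nalcn, Scnn1a and Fgf12 did not overlap between groups.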

How the data were processed

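The authors deposited 1 table of FPKM values for 8 libraries, 4 cocktail and 4 untreated. Per the labels' protocols, TRIzol RNA went into a TruSeq stranded mRNA preparation. The submitters' processing notes name mm10, while aligner, counting program and strand setting are not given here. Samples were grouped by title, since the treatment field of 3 cocktail libraries writes C1q with another digit.

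All 11845 genes that reached 1 FPKM in 4 or more libraries entered 1 limma fit (version 3.58.1, R 4.3.3) of log2(FPKM + 1), cocktail minus untreated, with trended variance, no covariate and two-sided p-values adjusted by Benjamini-Hochberg over these genes. This scale understates the change of low genes. Folds are ratios of mean FPKM. The fit was also run on simulated fragments in which few genes changed, unlike these data, so that run does not measure the error of the calls here.

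Within a gene, FPKM of different libraries stood in whole-number ratios to a relative tolerance of 1e-11, which gave whole fragments for 16557 genes, 149 of them members, and the library totals. They were used for depth and for limma voom. Positions come from RefSeq for GRCm38.p6 by NCBI gene number, found for all 168 members, and exon overlaps from GENCODE M21.

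Named genes were the called members with the largest rises (up to 12) and falls (12), the 8 most abundant, the most abundant of each role, Kcnf1, Cacna1d and 6 of the list outside the name rule. Other members were named to complete a role, after their values were seen. Some members that the rule names are not reported here. The members, lists and rules were chosen with earlier results of these data known.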

Additional observations from a re-analysis of the deposited data

Results flagged for a closer look

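In 5 of 100 groups of 4 libraries looked at for the genes named by rule and those described under the filter, 1 library lay far from the other 3. Chance flags about 1 in 20 such groups. Kcnf1 was at 83.1 FPKM in cocktail library 2, against 88.2 to 89.0 in the other cocktail libraries, and at 8.35 FPKM in untreated library 4, against 7.27 to 7.34 in the others. Trpm4 was at 1.81 FPKM in untreated library 1, against 1.53 to 1.55 in the others. Cacnb1 was at 8.44 FPKM in cocktail library 2, against 7.62 to 7.70 in the others, and Trpm1 at 0.169 FPKM in the same library, against 0.0516 to 0.0716 in the others.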

How the results depend on the processing

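With the filter of 1 FPKM in 4 libraries, 10 members were called higher and 32 lower, 2 and 16 of them at least 2-fold. Without a filter the counts were 17 higher and 55 lower, 8 and 35 at least 2-fold, and 22 of the genes outside the name rule fell instead of 14. With limma voom on every gene with recovered fragments they were 18 higher and 58 lower, 10 and 39 at least 2-fold, and 23. With a mean of at least 5 FPKM they were 5 higher and 12 lower, 1 and 4 at least 2-fold. These settings test more or fewer genes. A level of 5 FPKM was reached by 25 members, in place of 51 at 1 FPKM. The voom fit without a filter and a filter on the mean over all libraries were added after the data were seen. With 1 library left out, 9 to 10 members were higher and 31 to 32 lower.

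Clcn7 was not called in any setting and changed sign. Its log2 change was -0.012 as deposited, 0.048 after median-ratio rescaling and 0.030 after quantile normalization. It ran from -0.044 to 0.013 with 1 library left out. The cause was not tested. Pseudocounts of 0.1 and 0.5 FPKM, fitting without a variance trend, and voom on recovered fragments of the filtered genes changed no call. Quantile normalization lost Clcn5, Kcnn3 and Scn2a1 and gained 2 calls, Kcnab2 among them, with 12 members higher and 29 lower. Voom without a filter lost Cacng8 (adjusted p = 0.058).

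Deviations of same-numbered libraries from their group means correlated at -0.044, 0.078, 0.086 and -0.007, and 2 of 4 cocktail libraries correlated best with their own number. The labels do not say whether the numbers pair the libraries. These correlations cannot decide it, since paired libraries without a shared deviation would also give low values. With the replicate block, 10 members were higher and 32 lower, and over all genes 3121 were higher and 4829 lower, in place of 3151 and 4872.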
